A study of Mus musculus with 10 samples.

Results

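The BCL2 family decides whether a cell opens its mitochondria and dies. The members described here are the survival proteins Bcl2, Bcl2l1 (BCL-XL), Bcl2l2 (BCL-W) and Mcl1, the pore-forming proteins Bax, Bak1 and Bok, and the BH3-only death proteins Bcl2l11 (BIM), Bbc3 (PUMA) and Bid. Every probe set that the platform annotation gives to 1 of these 10 genes and to no other gene was taken, whatever its signal. This gave 31 probe sets of 9 genes, out of 45137 probe sets on both chips, with 26 on 430A and 5 on 430B. The annotation used here lists no probe set for Bax, which was not analysed here.

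Survival proteins hold the pore-forming proteins and the BH3-only proteins in check at the outer mitochondrial membrane. When BH3-only proteins outnumber them, pores form, cytochrome c leaves the mitochondria and caspases are activated. In the developing cerebellum many young neurons die by this route, and mature neurons depend on BCL-XL and related survival proteins.

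The arrays compared medulloblastoma, a tumour that arises in the cerebellum, with the cerebellar tissue beside it. All mice were CAGGS-CreER;R26-SmoM2 and all received tamoxifen (1 mg for every 40 g of body weight) on postnatal day 10, so the tissue the labels call wild type carried the same alleles and had the same drug. CAGGS is a promoter active in nearly all cell types, CreER is the recombinase that tamoxifen switches on, and SmoM2 is a mutant Smoothened that signals without its ligand. Each Affymetrix chip, 430A and 430B, held 3 medulloblastoma and 2 cerebellum arrays, which the labels number as biological replicates. The sources used here do not give the age at collection or whether tissues of the same number came from 1 mouse.

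Intensity is the deposited brightness of a probe set on a linear scale. Array medians lay between 33.3 and 35.9 units on 430A and between 22.5 and 24.0 on 430B. Defining markers of both tissues were measured. All 10 granule precursor markers and all 9 proliferation markers measured were higher in the tumours, and all 10 markers of mature granule neurons and all 6 of Purkinje cells were lower, with all 6 of oligodendrocytes and 6 of 8 of astrocytes and Bergmann glia. The cerebellum samples were not alike in the first 2 lists. On 430A proliferation markers summed to 653 units in cerebellum 1 and 349 in cerebellum 2, against 4568 to 5077 in tumours. Granule precursor markers summed to 535 and 254, against 4245 to 6269 in tumours. The cause of this difference was not tested. Of the microglia and macrophage markers 7 of 9 were higher, with a summed intensity on 430A from 1457 to 1876 in tumours and from 493 to 585 in cerebellum. Those of blood (2 genes), lymphocytes (4 genes) and vessels (8 genes) gave no higher call, and 2 vessel markers were lower. On the 100 probe sets that both chips hold, tumours 1 and 2 of 430B read 0.70 and 0.77 log2 units above the 430A arrays of the same number, against 0.07 to 0.17 for the other arrays. Tumour 1 of 430A matched tumour 2 of 430B best on these probe sets (r = 0.971). Tumour 2 of 430A matched tumour 3 of 430B best (r = 0.959), so the tumour numbers of the chips are not taken to be the same tumours. The shifts above, and the scaling of 430B on these probe sets used below, still compare arrays of the same number.

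Promoter sequences from RefSeq (GRCm38.p6) are shown for Bok, Bcl2l11 and Bcl2l2, whose probe sets moved furthest in each direction. For Bcl2l11 the first of the start sites listed is shown. The second of the start sites listed for Bbc3 is shown as well, since it shares a motif with that of Bcl2l11. The part of this motif in the values was not tested. Each line holds the 250 bases before a transcription start, 5′ to 3′, on the strand of the gene. Capitals mark matches to the motifs described after the sequences.
Bok, chr1:93685325-93685574, plus strand: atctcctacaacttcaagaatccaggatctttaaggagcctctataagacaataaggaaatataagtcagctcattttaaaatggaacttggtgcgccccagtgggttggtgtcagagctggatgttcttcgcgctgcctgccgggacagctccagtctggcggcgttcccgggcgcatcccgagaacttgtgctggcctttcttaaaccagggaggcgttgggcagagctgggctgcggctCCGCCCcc
Bcl2l11, chr2:128125788-128126037, plus strand: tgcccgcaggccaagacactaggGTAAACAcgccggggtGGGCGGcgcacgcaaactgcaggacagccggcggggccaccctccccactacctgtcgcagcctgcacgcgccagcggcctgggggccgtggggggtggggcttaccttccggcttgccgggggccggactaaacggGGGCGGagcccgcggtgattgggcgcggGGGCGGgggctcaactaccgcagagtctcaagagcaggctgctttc
Bbc3, chr7:16310011-16310260, plus strand: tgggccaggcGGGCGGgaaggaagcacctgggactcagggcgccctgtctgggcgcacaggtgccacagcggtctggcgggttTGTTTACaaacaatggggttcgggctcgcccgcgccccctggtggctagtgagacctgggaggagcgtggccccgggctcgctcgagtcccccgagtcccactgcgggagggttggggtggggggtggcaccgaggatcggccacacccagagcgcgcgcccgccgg
Bcl2l2, chr14:54883175-54883424, plus strand: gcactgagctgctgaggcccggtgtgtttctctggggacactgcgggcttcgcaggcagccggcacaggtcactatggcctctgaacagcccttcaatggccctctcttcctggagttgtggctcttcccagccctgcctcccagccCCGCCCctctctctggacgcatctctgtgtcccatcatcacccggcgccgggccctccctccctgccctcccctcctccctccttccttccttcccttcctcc

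Each of the 10 genes matched the RefSeq table, with 15 windows in all, and 6 motifs were searched in these windows on both strands. The GC box GGGCGG, which SP1 and related factors bind, occurs 1 time each in the windows of Bok and Bcl2l2. It occurs 3 times in the first Bcl2l11 window and 2 times in the second, and 32.7% of 32851 windows of this length hold it. The FOXO core TGTTTAC occurs 1 time in the Bcl2l11 window, on the opposite strand, and 1 time in the Bbc3 window, and 3.17% of windows hold it. The GLI site GACCACCCA, the recognition sequence of the Hedgehog effectors, occurs in none of the 15 windows and in 0.225% of all windows. The E2F sites TTTCGCGC and TTTGGCGC (0.654% of windows) gave 1 match, in the second window of Bcl2l1. The E-box CACGTG (6.02%) gave 1 match each in the windows of Bax and the third of Bbc3, and the cyclic AMP element TGACGTCA (1.55%) gave none. No overlap between different motifs was found, while GC boxes of Bbc3 share bases with each other. These matches describe letters and do not show binding.

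Among the pore-forming and BH3-only genes, Bok, Bcl2l11 and Bid had probe sets that rose in the tumours, and Bak1 and Bbc3 had none that passed the test. Among the survival genes, Bcl2l2 and Bcl2l1 each had 1 probe set that fell and Mcl1 had 1 that rose, while no probe set of Bcl2 passed. A probe set was tested if its mean log2(intensity + 16) was above the lowest 25% of its chip, and called at an adjusted p below 0.05 in limma (two-sided, Benjamini-Hochberg over the chip). Of the 26 probe sets on 430A, 22 were tested, 5 rose and 2 fell, where 13.1% of 16969 tested probe sets rose and 19% fell. The shares of the tested probe sets were 22.7% and 9.09%, and their median log2 fold change was 0.17, against -0.05 over the chip. Of the 5 that rose, the one of Bid passed the limit on low values only through its tumour values, so without a difference it would not have been tested. With no such limit all 26 were tested, and the same counts of 5 and 2 were called, against 9.33% and 14% of the chip. On 430B, 4 of 5 were tested and limma called none, where 7.85% of 16883 rose and 9.77% fell. None of the 4 had an unadjusted p below 0.05 (smallest 0.0816) or groups that do not overlap, as 45.6% of the chip had. With 3 tumours and 2 cerebellum samples the p-values measure the spread between these samples only, part of which may be technical. In limma the spread of each probe set is also drawn towards that of other probe sets of like brightness. In pieces of tissue, fewer cells of a type and less RNA per cell cannot be told apart.

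**Figure D1:**
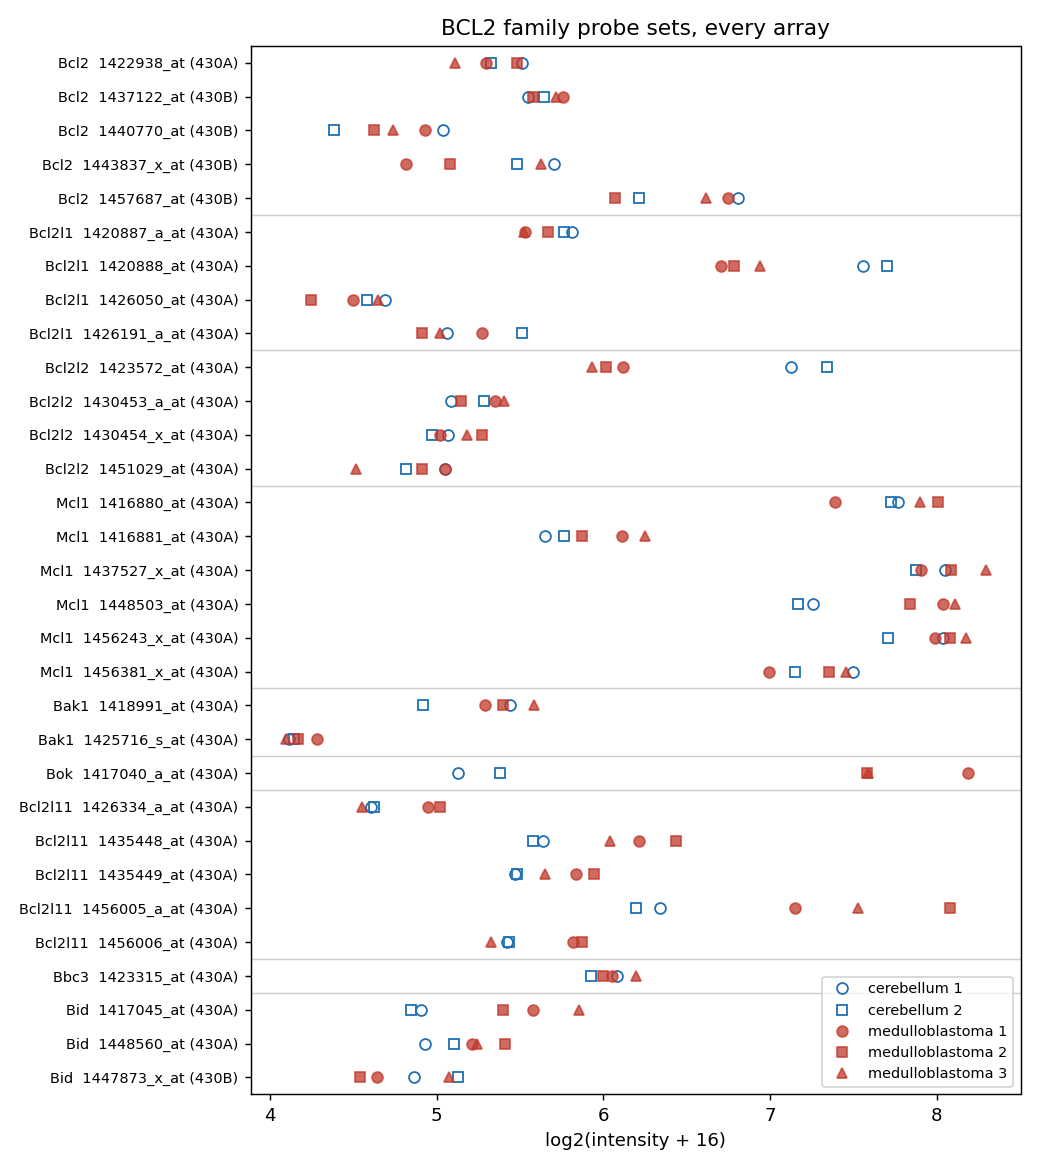
Each row is 1 of the 31 probe sets and each point 1 array, on a log2(intensity + 16) axis, with open blue symbols for cerebellum and filled red symbols for medulloblastoma. The tumour points of Bok stand furthest from the cerebellum points, while those of Bbc3 lie among or close to them.

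Bok, a pore-forming protein that survival proteins hold back little, had the largest change of the family. Its only probe set, 1417040_a_at, read 275, 176 and 176 units in tumours 1, 2 and 3 and 18.9 and 25.7 in cerebellum samples 1 and 2. The lowest tumour lay far above the higher cerebellum sample, and tumour 1 stood above the other two. The tumour mean, 209 ± 57.5 (SD, n = 3), was 9.37 times the cerebellum mean of 22.3 ± 4.81 (SD, n = 2) on the intensity scale. The log2 fold change was 2.53 ± 0.23 (SE), with a 95% interval from 2.03 to 3.03 and an adjusted p of 9.97e-06 in limma. Since low values are compressed by the added 16, it was 3.15 with 1 added and 1.64 with 64. It stayed between 2.33 and 2.66 with any 1 array left out, and each of those fits called it.

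The 3 genes of 430A whose profile over the 5 arrays lay nearest to that of Bok, out of 9817, were Mcm5, Nt5dc2 and Rad51ap1. Their profiles differed from it by a root mean square of 0.13, 0.14 and 0.14 log2 units after each was centred on its own mean. Mcm5, a part of the replicative helicase, read 312, 247 and 201 units in the tumours against 27.5 and 27.8 in the cerebellum samples. With 3 arrays against 2, any gene that differs by a like amount between the tissues has such a profile. The nearest profiles to Bcl2l2 were those of Lrpap1 (0.04), Aig1 (0.05) and Ttc3 (0.05). Lrpap1, a chaperone of lipoprotein receptors, read 89.4, 81.0 and 80.0 units in the tumours against 187 and 240 in the cerebellum samples.

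Bak1, which forms the same kind of pore as Bax, showed no such change. Its probe set 1418991_at read 23.2, 26.2 and 32.0 units in the tumours against 27.3 and 14.2 in the cerebellum samples. The tumours lie within or just above the range of the cerebellum samples, which differ from each other by more than the tumours do. The log2 fold change was 0.25 ± 0.18 (95% interval -0.15 to 0.64, adjusted p = 0.339 in limma). This interval does not include a change of the size seen for Bok, though it does include a modest rise. The other Bak1 probe set, 1425716_s_at, read between 1.10 and 3.45 units on all arrays, at the bottom of the scale, and was not tested.

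Bcl2l11 encodes BIM, a BH3-only protein that binds all survival proteins and can activate the pore-forming ones. Of its 5 probe sets, 2 rose and none fell. Probe set 1456005_a_at read 126, 254 and 169 units in the tumours against 65.0 and 57.2 in the cerebellum samples, and the groups do not overlap. Its log2 fold change was 1.32 ± 0.26 (95% interval 0.75 to 1.89, adjusted p = 0.00227 in limma). Probe set 1435448_at read 58.2, 70.6 and 49.8 units in the tumours against 33.8 and 31.7 in the cerebellum samples, with a log2 fold change of 0.62 ± 0.17 (adjusted p = 0.0149). In both, tumour 2 was the highest array.

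Of the other Bcl2l11 probe sets, 1435449_at also had every tumour (41.1, 45.7 and 34.3 units) above both cerebellum samples (28.3 and 28.6), but its adjusted p was 0.122 at a log2 fold change of 0.34 ± 0.15. In 1456006_at tumour 3 fell below the cerebellum samples, with 40.3, 42.5 and 24.1 units against 26.9 and 27.2, and the adjusted p was 0.358. The probe set 1426334_a_at read from 7.49 to 16.5 units and was not tested. All 4 tested probe sets had a positive log2 fold change. Groups that do not overlap are common here, in 55.6% of tested probe sets of 430A and in 11 of the 22 of this family. The call of 1435448_at ended without cerebellum 1 (log2 fold change 0.66, adjusted p = 0.0835) and without cerebellum 2 (0.59, adjusted p = 0.129), and that of 1456005_a_at held with any 1 array left out.

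Foxo3, a transcription factor that can switch on Bcl2l11 and Bbc3, was lower in the tumours, and its part in their values was not tested. It read 91.4, 214 and 154 units in the tumours against 376 and 266 in the cerebellum samples, a log2 fold change of -1.04 ± 0.30 (adjusted p = 0.0210 in limma). Its other tested probe set was lower as well, at -1.21 ± 0.21 (adjusted p = 0.00119). The first was not called without cerebellum 1 (-0.80, adjusted p = 0.191), without tumour 1 (-0.75, adjusted p = 0.0685) or after quantile normalization (-0.85, adjusted p = 0.0636).

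Bbc3 encodes PUMA, the BH3-only protein that p53 induces. Its only probe set, 1423315_at, read 50.3, 47.9 and 57.2 units in the tumours against 51.9 and 44.8 in the cerebellum samples. The groups overlap and the means, 51.8 ± 4.80 (SD, n = 3) and 48.3 ± 4.96 (SD, n = 2), differ by less than the spread. The log2 fold change was 0.08 ± 0.16, with a 95% interval from -0.27 to 0.43 and an adjusted p of 0.772 in limma.

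Bid links death receptors to mitochondria once caspase 8 cleaves its protein. Probe set 1417045_at read 31.8, 26.1 and 41.7 units in the tumours against 14.0 and 12.8 in the cerebellum samples, where it lay under the limit for testing. Its log2 fold change was 0.73 ± 0.16 (adjusted p = 0.00493 in limma), and 0.70 with an adjusted p of 0.0528 without cerebellum 2. The second 430A probe set, 1448560_at, read 21.0, 26.5 and 21.8 units against 14.4 and 18.5, a log2 fold change of 0.27 ± 0.14 that was not called (adjusted p = 0.191). The 430B probe set 1447873_x_at read 8.93, 7.28 and 17.6 units against 13.1 and 18.9, with -0.24 ± 0.19 (adjusted p = 0.461). It passed the limit on low values only through the cerebellum samples, and the tumour that read highest is tumour 3. With the 430B arrays of tumours 1 and 2 left out the log2 fold change was 0.08 (adjusted p = 0.876), and -0.61 (adjusted p = 0.319) after scaling 430B on the probe sets it shares with 430A. Microglia markers rose beside Bid, as described above, and their part in its change was not tested.

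**Figure D2:**
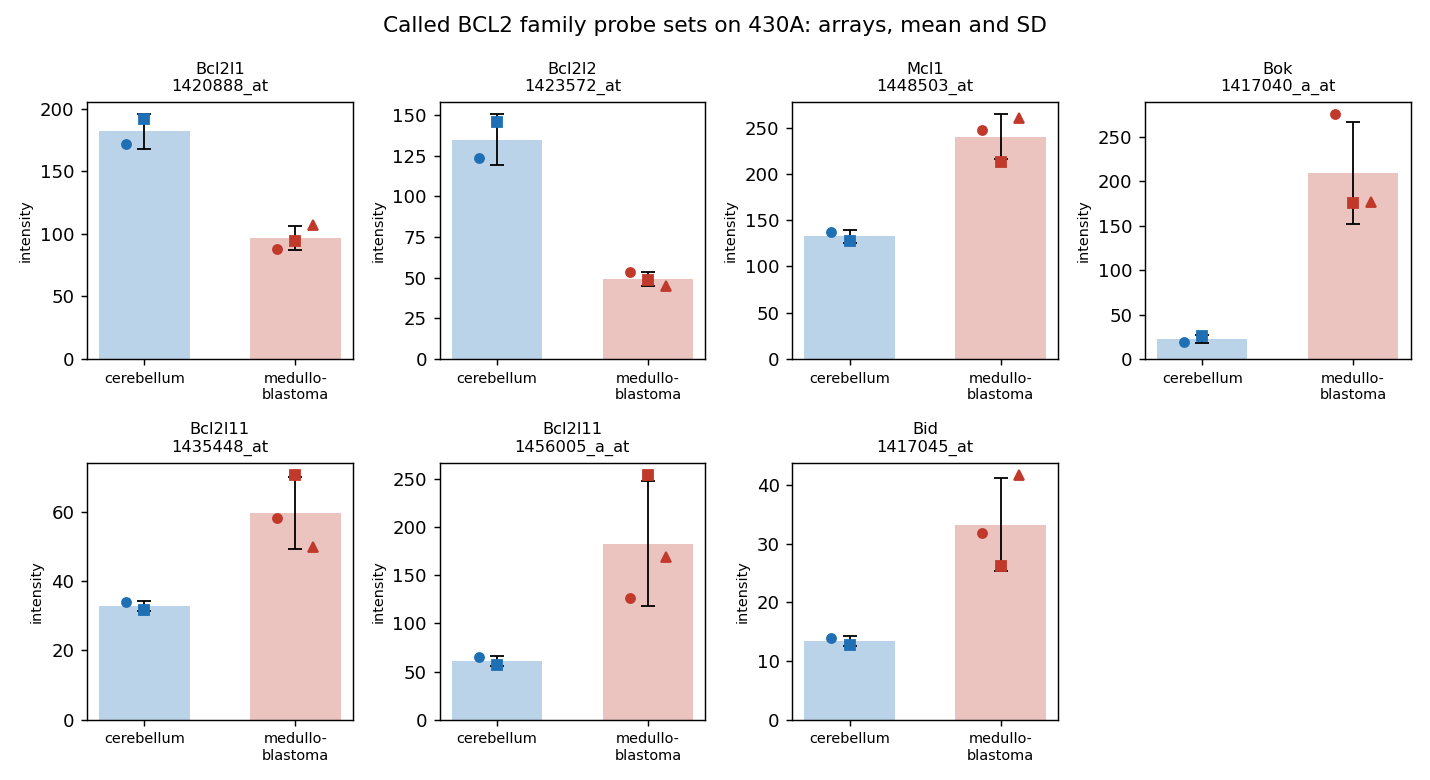
Bars show mean intensity on a linear axis from 0, lines the SD and points the arrays, for the 7 probe sets called on 430A. Bcl2l1 and Bcl2l2 are lower in all 3 tumours than in both cerebellum samples, and Mcl1, Bok, Bcl2l11 and Bid are higher.

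The survival genes moved in both directions. Of their 13 tested probe sets on 430A, 1 rose and 2 fell, where 13.1% of the chip rose and 19% fell, and 7 of the 13 had a positive log2 fold change (median 0.02). Of the BH3-only genes 3 of 7 tested on 430A rose, and all 7 were positive (median 0.34), where 44.9% of the chip was positive (median -0.05). The one of Bid that rose passed the limit on low values only through its tumour values. Of the pore-forming genes 1 of 2 rose on 430A. On 430B, where 7.85% rose and 9.77% fell, none of 3 survival and 1 BH3-only probe sets was called. There the BH3-only one was at -0.24 and 1 of the 3 survival ones was positive, where 47.3% of the chip was positive. These counts describe the probe sets, several of which measure 1 gene, and the difference between the roles was not tested.

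Bcl2l2 encodes BCL-W, a survival protein prominent in adult neurons. Its brightest probe set, 1423572_at, read 53.6, 48.8 and 45.0 units in the tumours against 124 and 146 in the cerebellum samples. Every tumour was well below both cerebellum samples, and the tumours were close to each other. The mean fell from 135 ± 15.7 (SD, n = 2) to 49.1 ± 4.26 (SD, n = 3), and the log2 fold change was -1.21 ± 0.17 (95% interval -1.60 to -0.83, adjusted p = 2.81e-04 in limma). Every alternative run called it lower, from -0.81 with 64 added to -1.44 with 1 added.

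The other Bcl2l2 probe sets did not follow. Probe set 1430453_a_at read 24.8, 19.4 and 26.3 units in the tumours against 18.0 and 23.0 in the cerebellum samples, with a log2 fold change of 0.11 ± 0.15 (adjusted p = 0.632 in limma). Probe set 1430454_x_at gave 0.14 ± 0.14 (adjusted p = 0.520), and its 95% interval, -0.18 to 0.45, does not reach the value of the first. The last, 1451029_at, read from 6.90 to 17.1 units and was not tested. Both uncalled tested probe sets were dim, at no more than 26.3 units on any array.

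Bcl2l1 encodes BCL-XL, a survival protein that neurons depend on. Its probe set 1420888_at read 88.3, 94.3 and 107 units in the tumours against 172 and 192 in the cerebellum samples. The groups do not overlap, and the tumour mean of 96.5 ± 9.54 (SD, n = 3) lay below the cerebellum mean of 182 ± 13.8 (SD, n = 2). The log2 fold change was -0.82 ± 0.19 (95% interval -1.23 to -0.40, adjusted p = 0.00638 in limma), and -0.75 with an adjusted p of 0.0864 without cerebellum 2.

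The dimmer probe sets of Bcl2l1 did not pass the test. Probe set 1420887_a_at read 30.1, 34.8 and 29.9 units in the tumours against 40.1 and 38.2 in the cerebellum samples, again with no overlap, at -0.21 ± 0.14 (adjusted p = 0.307 in limma). Probe set 1426191_a_at overlapped, with 22.7, 14.2 and 16.4 units against 17.4 and 29.6, at -0.22 ± 0.18 (adjusted p = 0.399). Its value rested on single cerebellum arrays, at 0.01 without cerebellum 2 and -0.44 without cerebellum 1. The last, 1426050_at, read at most 9.79 units on all arrays and was not tested. Bcl2l1 makes a long survival form and a short death-promoting form by splicing, and which of these a probe set detects was not analysed here.

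Mcl1 encodes a survival protein with a very short life that many dividing cells need. It has 6 probe sets on 430A, all tested, of which 1 rose. Probe set 1448503_at read 247, 213 and 261 units in the tumours against 137 and 128 in the cerebellum samples, a mean of 240 ± 24.3 (SD, n = 3) against 132 ± 6.78 (SD, n = 2). Its log2 fold change was 0.78 ± 0.20 (95% interval 0.35 to 1.22, adjusted p = 0.00995 in limma). The call ended without cerebellum 1 (0.83, adjusted p = 0.0621) and without cerebellum 2 (0.74, adjusted p = 0.108).

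Probe set 1416881_at also had all tumours above the cerebellum samples, with 53.0, 42.6 and 60.1 units against 34.1 and 38.4. Its log2 fold change of 0.37 ± 0.17 had an adjusted p of 0.120 in limma, and 0.47 with an adjusted p of 0.0274 without tumour 2. The remaining 4 overlapped between the tissues, with log2 fold changes of 0.21, 0.13, 0.02 and -0.05 (adjusted p from 0.493 to 0.964). In 1416880_at, for example, the tumours read 152, 242 and 223 units, on both sides of the cerebellum samples at 202 and 195. Of the x_at type, which can pick up other transcripts, are 3 of these 4.

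Bcl2, the founding survival gene, had no called probe set. On 430A, 1422938_at read 23.4, 28.7 and 18.6 units in the tumours against 29.5 and 24.1 in the cerebellum samples, a log2 fold change of -0.12 ± 0.16 (95% interval -0.47 to 0.23, adjusted p = 0.631 in limma). On 430B, 1437122_at read 38.1, 31.7 and 36.6 units against 30.8 and 34.1 (0.09 ± 0.14, adjusted p = 0.744), and 1457687_at read 91.4, 51.2 and 82.0 against 95.9 and 58.2 (-0.03 ± 0.25, adjusted p = 0.951). In both, the tissues overlap. The probe set 1440770_at read from 4.92 to 16.9 units and was not tested.

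The Bcl2 probe set 1443837_x_at depended on 1 array. It read 12.2, 17.8 and 33.4 units in tumours 1, 2 and 3 of 430B and 36.2 and 28.8 in the cerebellum samples. Tumour 3 lay between the cerebellum samples and the other tumours lay below. With all arrays the log2 fold change was -0.42 ± 0.22 (adjusted p = 0.240 in limma), and without tumour 3 it was -0.65 with an adjusted p of 0.00607. It was 0.03 with tumours 1 and 2 left out, the arrays that stand apart on the shared probe sets, and -0.79 with an adjusted p of 0.153 when 430B was scaled on those probe sets. Under that scaling 1437122_at changed sign to -0.28 (adjusted p = 0.586) and 1457687_at had -0.40 (adjusted p = 0.409). Without tumours 1 and 2 they had 0.12 (adjusted p = 0.772) and 0.10 (adjusted p = 0.818).

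**Figure D3:**
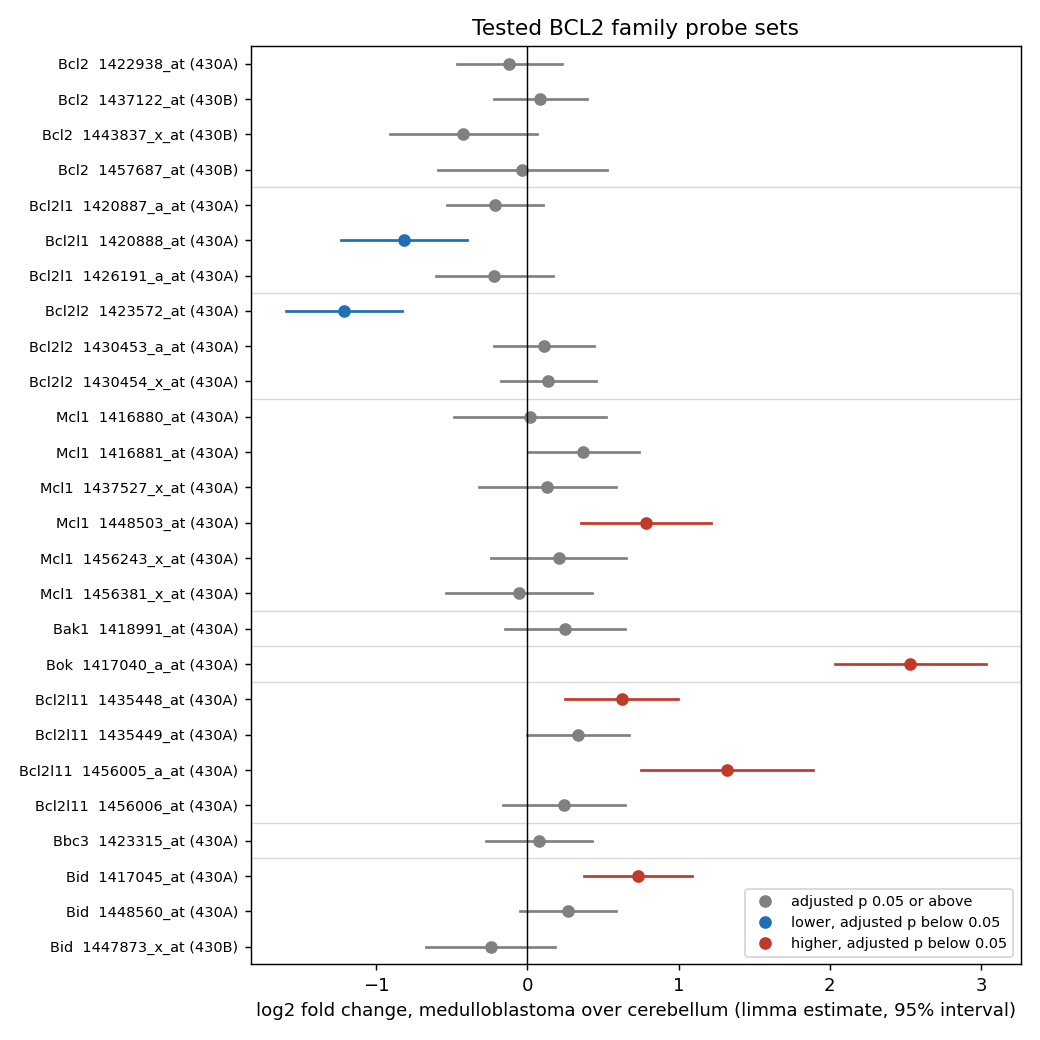
Points are limma log2 fold changes of medulloblastoma over cerebellum and lines their 95% intervals, for the 26 tested probe sets, with calls in red (higher) and blue (lower). Within Bcl2l2, Mcl1 and Bcl2l11 called probe sets stand beside uncalled ones of the same gene.

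On 430A, 5 members had at least 2 tested probe sets, and each of the 5 had both called and uncalled ones, though none had calls in both directions. Of all 3679 such genes on 430A, 28.2% had both kinds and 20 had calls in both directions. The spread between the probe sets of a gene had a median of 0.84 log2 units in the members and 0.33 in all genes. Members carry 2 to 6 tested probe sets each, which makes both figures larger, and the difference was not tested.

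The other genes of the death machinery were read from 1 probe set per gene, over 7 lists with 60 measured genes, of which 9 rose and 17 fell. Over all 14702 genes tested this way 10.7% rose and 16% fell, with a median log2 fold change of -0.05, against -0.03 in the lists. Of the 9 that rose, Bcl2l14, Casp6, Htra2 and Birc5 passed the limit on low values only through their tumour values, so without a difference they would not have been tested. With no such limit the adjusted p was 0.0682 for Bcl2l14, which is no call, 0.0283 for Casp6, 0.00950 for Htra2 and 8.48e-06 for Birc5. Of the 17 that fell, 15 were called in that fit, without Vdac1 (adjusted p = 0.0598 in limma) and Endog (adjusted p = 0.0640). Of 9 other genes of the BCL2 family or associated with it, 1 rose and 1 fell (median 0.14), with Bclaf1, an associated factor, among those not called. Bnip3, a mitochondrial protein induced by low oxygen that also directs mitophagy, read 58.1, 33.8 and 56.0 units in the tumours against 224 and 239 in the cerebellum samples, a log2 fold change of -1.94 ± 0.21 (adjusted p = 4.27e-05 in limma). Bcl2l14 rose by 0.44 ± 0.15 (adjusted p = 0.0482) at 24.1 ± 0.47 (SD, n = 3) against 13.8 ± 5.64 (SD, n = 2) units, and 8 alternatives ended that call, among them 4 of the 5 that leave out 1 array (0.25 without cerebellum 1). The BH3-only genes Bad, Bmf, Hrk and Pmaip1 gave no call, with log2 fold changes of -0.05, 0.24, 0.34 and 0.23.

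In the list of the apoptosome and caspases, 5 of 12 genes rose and 2 fell (median 0.09). Casp2, an initiator caspase, read 230, 192 and 211 units in the tumours against 49.9 and 46.3 in the cerebellum samples, a log2 fold change of 1.82 ± 0.19 (adjusted p = 2.49e-05 in limma). Apaf1, the scaffold that cytochrome c turns into the apoptosome, read 71.2, 80.6 and 111 units against 25.2 and 17.9, at 1.45 ± 0.20 (adjusted p = 1.78e-04), though its second probe set gave 0.27 ± 0.19 (adjusted p = 0.310). Htra2, a mitochondrial protease, rose by 0.73 ± 0.16 (adjusted p = 0.00441), and the fit without cerebellum 1 did not call it (0.59, adjusted p = 0.0750). Cycs, cytochrome c itself, was at -0.69 ± 0.19 (adjusted p = 0.0154), but at -0.13 (adjusted p = 0.669) after quantile normalization, and it lost its call without cerebellum 1 (-0.76) or cerebellum 2 (-0.61). Its other 430A probe sets were lower too, at -0.62 ± 0.21 and -1.52 ± 0.22, and the 430B one was not called (-0.07 ± 0.17). The remaining calls were Casp6 (0.51), an effector caspase, Diablo (0.61), which blocks inhibitors of apoptosis, and Endog (-0.46), a mitochondrial nuclease. Casp6 lost its call without cerebellum 1 (0.38) or tumour 1 (0.49), Diablo without cerebellum 1 (0.76), cerebellum 2 (0.47) or tumour 1 (0.54), and Endog in all fits with 1 array left out but that without tumour 2. The list had 2 rises without cerebellum 1 and 3 without tumour 1, and no fall without either cerebellum array or after quantile normalization.

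Of 6 inhibitor of apoptosis genes 1 rose and 2 fell (median -0.18). Birc5 (survivin), which also serves the chromosomal passenger complex in mitosis, read 250, 207 and 256 units in the tumours against 15.2 and 9.60 in the cerebellum samples, a log2 fold change of 3.16 ± 0.19 (adjusted p = 9.55e-07 in limma). Birc5 thus moved beside the proliferation markers, which summed to between 4568 and 5077 units in tumours and between 349 and 653 in cerebellum, and the part of dividing cells in its change was not tested. Xiap, which blocks caspases directly, read 198, 210 and 263 units in the tumours against 500 and 444 in the cerebellum samples, at -1.03 ± 0.21 (adjusted p = 0.00251). One other Xiap probe set was lower too (-1.19 ± 0.25) and another was not called (-0.02 ± 0.15). Birc2 had -0.60 ± 0.19 (adjusted p = 0.0296), a call that ended without cerebellum 1 (-0.58), cerebellum 2 (-0.62) or tumour 1 (-0.53) and after quantile normalization (-0.48).

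Of 7 death receptor and adaptor genes 1 rose, Ngfr, the p75 neurotrophin receptor, which granule neuron precursors carry. It read 79.0, 57.6 and 70.2 units in the tumours against 19.8 and 24.96 in the cerebellum samples, a log2 fold change of 1.14 ± 0.17 (adjusted p = 3.38e-04 in limma). Its other probe sets gave 0.33 and 0.07 with no call. The list median was 0.04, and Cflar, a caspase 8 inhibitor, was at -0.20 ± 0.17 (adjusted p = 0.409).

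Of 9 genes of mitochondrial channels, fusion and fission 7 fell and none rose (median -0.75). They were Vdac1, Vdac2 and Vdac3, the channels of the outer membrane, with Dnm1l and Mff, which divide mitochondria, and Mfn1 and Mfn2, which fuse them. Mfn2 read 22.7, 37.3 and 28.8 units in the tumours against 80.1 and 114 in the cerebellum samples, at -1.31 ± 0.19 (adjusted p = 3.59e-04 in limma), and its second probe set was not called (-0.03). Dnm1l had -1.26 ± 0.23 (adjusted p = 0.00155), Mfn1 -1.08 ± 0.20 (adjusted p = 0.00180) and Vdac2 -1.10 ± 0.19 (adjusted p = 8.89e-04). Of the other tested probe sets of Dnm1l, 1 was lower (-1.04 ± 0.23) and 1 was not called (-0.77 ± 0.28, adjusted p = 0.0561). Of the list, 3 fell after quantile normalization, where Vdac2 had -0.50 (adjusted p = 0.0755), and 4 fell without cerebellum 1 and 4 without cerebellum 2. Vdac1 and Vdac3, at -0.63 and -0.65, and Mff, at -0.75, each lost the call in both of these fits and after quantile normalization, and Vdac1 lost it in every fit with 1 array left out. The 9 markers of mature granule neurons on 430A fell beside this list, with a sum from 503 to 603 units in tumours and from 10306 to 11630 in cerebellum, and their part in its change was not tested.

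**Figure D4:**
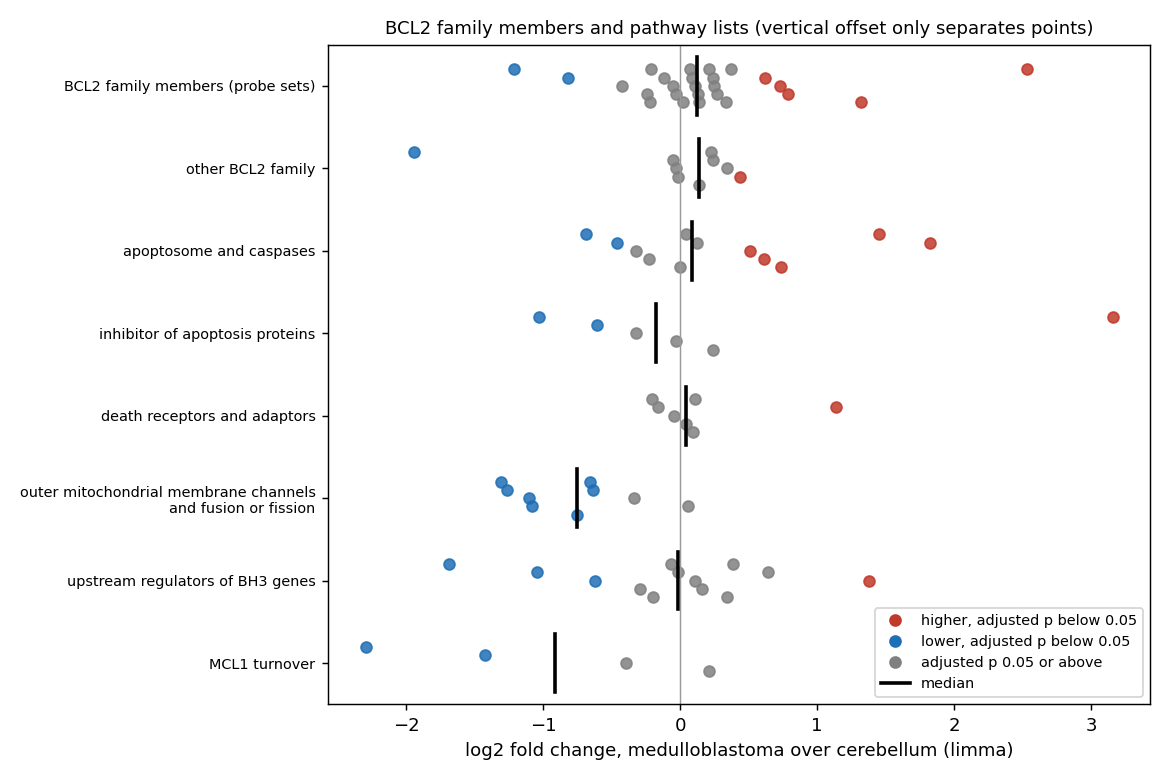
Points are limma log2 fold changes of medulloblastoma over cerebellum, 1 per probe set in the top row and 1 per gene in the 7 lists, with calls in red (higher) and blue (lower) and black bars for medians. The list of channels, fusion and fission lies mostly to the left of 0, and the point at 3.16 among the inhibitors of apoptosis is Birc5.

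Of 13 upstream regulators of BH3 genes 1 rose and 3 fell (median -0.01), the third being Foxo3, described above. Akt1, a kinase that restrains several death proteins, read 281, 296 and 205 units in the tumours against 68.9 and 115 in the cerebellum samples, at 1.38 ± 0.25 (adjusted p = 0.00129 in limma). Its second 430A probe set rose by 0.95 ± 0.21 (adjusted p = 0.00422), and the tested 430B one was not called (0.25 ± 0.17, adjusted p = 0.386). Mapk10, the neuronal JNK kinase, had -1.69 ± 0.18 (adjusted p = 2.85e-05), and Ddit3, the stress factor CHOP, had -0.62 ± 0.17 (adjusted p = 0.0177). A second 430A probe set of Mapk10 fell too (-2.15 ± 0.21), while the 430B probe sets of Mapk10 (0.05 ± 0.17, adjusted p = 0.883) and Ddit3 (-0.24 ± 0.16, adjusted p = 0.356) were not called. The Ddit3 call ended without cerebellum 1 (-0.61), cerebellum 2 (-0.62) or tumour 3 (-0.50). Mdm2, which degrades p53, was at -0.01 with no call, at 147, 144 and 124 units against 142 and 137.

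Of 4 genes that set how long the MCL1 protein lasts, 2 fell and none rose (median -0.91). Fbxw7, a ubiquitin ligase subunit that also targets other growth proteins, read 74.8, 49.2 and 61.9 units in the tumours against 383 and 344 in the cerebellum samples, a log2 fold change of -2.29 ± 0.21 (adjusted p = 1.08e-05 in limma). Its second probe set gave -2.14 ± 0.19. Usp9x, a deubiquitinase that protects MCL1, rested on 1 cerebellum array. It read 79.9, 68.5 and 130 units in the tumours against 152 and 465 in cerebellum samples 1 and 2, at -1.42 ± 0.39 (adjusted p = 0.0151), and at -0.46 (adjusted p = 0.334) without cerebellum 2, while it was -2.18 without cerebellum 1 and lost its call without tumour 1 (-1.35). Of its 6 other probe sets 1 was called, at -0.71 ± 0.21.

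Smo, the gene of the mutant allele, read 60.9, 81.2 and 59.4 units in the tumours against 39.3 and 37.3 in the cerebellum samples, at 0.60 ± 0.17 (adjusted p = 0.0198 in limma). That call ended without cerebellum 1 (0.63) and without cerebellum 2 (0.58). The other tested Smo probe set rose by 1.32 ± 0.19 (adjusted p = 2.50e-04). These probe sets are not known to detect the SmoM2 transcript.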

How the data were processed

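Per the labels, Trizol RNA was labelled as biotinylated cRNA and hybridised to Affymetrix 430A and 430B chips. The deposited values are intensity on a linear scale, 1 per probe set and array. The sources used here do not give the authors' scaling or background treatment. From 298 to 477 probe sets per array hold exactly 1, and 1 to 3 per array lie below it. No detection call was used, and the number of arrays limits the precision.

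Intensities were taken as log2(value + 16) with no further normalization. The lowest 25% of probe sets by mean were left out, and each chip was fitted with limma 3.58.1 (lmFit, eBayes with trend) in R 4.3.3. All columns were mapped by title. Probe sets were named by the platform annotation, updated through Entrez identifiers in the GRCm38.p6 gene table. In the lists each gene had 1 probe set (430A before 430B, suffixes other than _s_at and _x_at first, then the highest mean). All probe sets of the members are given. Of each list, the called genes with the largest absolute log2 fold change, up to 4, are given, or the 2 with the smallest p where fewer than 2 passed, and further genes were named after their values were seen. Likeness was computed for the members with the largest rise and fall. Motifs were chosen after the values were seen.

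Members and lists were chosen with earlier results of these data known. Alternatives were other pseudocounts (1, 64), quantile normalization, equal medians, a filter of 50% or none, eBayes with no trend, a replicate block, each replicate of a tissue left out, an adjusted p below 0.01, 2 alternatives for 430B and 2 for the choice of probe set. With 1 cerebellum array left the fit assumes that it varies like the tumours. With only tumour 3 left on 430B, it assumes that the tumour varies like the cerebellum samples. The fit was run on simulated data with independent noise and changes planted in brighter probe sets only. That run does not cover the dim probe sets of the family. Plots used matplotlib 3.10.9 (Python 3.11.15).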

Additional observations from a re-analysis of the deposited data

How the results depend on the processing

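The 7 called probe sets of the family kept their direction in all 97 fits under alternatives and their call in 90, and the 7 lost calls are of Bcl2l1, Mcl1, Bcl2l11 (1435448_at) and Bid. The losses came without a cerebellum array, except that Bcl2l11 1435448_at also missed an adjusted p below 0.01. The direction of these 7 could not have changed in many of the fits. Their groups do not overlap, so leaving out arrays or adding another pseudocount cannot reverse it. The filter, the trend and the adjusted p limit leave the log2 fold change as it is. On 430A the count of probe sets that rose ranged from 2 (without cerebellum 2) to 6 with 1 array left out, and was 3 without cerebellum 1. The count that fell ranged from 1 (without cerebellum 2) to 2. On 430B no probe set rose in any fit, and the count that fell ranged from 0 to 1 with 1 array left out. The replicate block also gave 1 there, the Bcl2 probe set 1443837_x_at, since tumour 3 has no partner and drops out of that estimate. Same-numbered tissues deviated together with r of -0.03 and 0.17 on 430A and 0.11 and 0.02 on 430B, only 2 pairs per chip, so the numbers were not taken as pairs. The block moved no other count of the family and no total of the lists by over 1.5 times. Over the lists, the count that rose ranged from 5 (without cerebellum 1) to 9 with 1 array left out. The count that fell ranged from 9 (without either cerebellum array) to 16, with 11 without tumour 1, and was 9 after quantile normalization and 8 at an adjusted p below 0.01. Among uncalled probe sets 9 changed sign in at least 1 alternative, 18 values in all, none of them called. Fits with fewer arrays have less power, and the cause of the other changes was not tested.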
